A study of Mus musculus with 24 samples.

Results

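Chemokine ligands are described here in mouse calvarial osteoblast cultures. A gene was taken as a ligand when the array annotation gave it exactly 1 symbol made of Ccl, Cxcl, Xcl or Cx3cl and a number, with or without a final letter. Where a gene had several rows on the array, the row with the highest mean over the 24 arrays was kept. This rule gave 34 ligands among the 22180 genes with a single-symbol row. No measured change entered the rule. A further 33 rows whose annotation joined several symbols, among them copies of Ccl19, Ccl21 and Ccl27, were not used.

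Chemokines are small secreted proteins that guide leukocytes along concentration gradients. They bind G protein-coupled receptors on the leukocyte, and β-arrestins are adaptor proteins that desensitise and internalise such receptors. The families are named by the spacing of conserved cysteines, as CC, CXC, XC and CX3C. In bone, Cxcl12 made by stromal cells keeps haematopoietic progenitors in the marrow through Cxcr4. CC ligands such as Ccl2, Ccl3 and Ccl9 attract monocytes and the precursors of osteoclasts.

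Skull bones of C57BL/6J pups, 7 to 10 days old, gave the cells, which were studied at passage 2. They came from mice labelled wild type or labelled β-Arrestin 2 knockout on the same background, and the 24 arrays form 8 groups of 3, 1 for each genotype on days 2, 5, 10 and 28. Ascorbic acid (50 mg/L) and β-glycerophosphate (5 mM), which drive osteoblasts to differentiate and lay down mineral, were in the medium of both genotypes from day 3 on. Day 2 cells were therefore untreated. The labels say that each replicate was prepared independently. The labels name no sorting step after the enzymatic digest, so each culture can hold other cells of the skull bone.

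Array values are log2 RMA values, 1 per gene and array, and array medians lay between 4.55 and 4.72. Of 10 osteoblast markers 7 were measured, and their mean level lay between 8.61 and 11.38 on every array, well above the array medians. The targeted gene goes against the labels. Arrb2, which encodes β-arrestin 2, was 2.31-fold higher on day 2 and 2.99-fold higher on day 5 in the arrays labelled knockout (limma adjusted p = 0.0206 and 0.000357). It was not called on day 10 (log2 difference 0.82, adjusted p = 0.0932) or day 28 (0.40, adjusted p = 0.797). Where the probes lie relative to the deleted part is not given in the sources used here. Every direction between genotypes below is therefore that of the labels.

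The sequence upstream of a start site is shown for 4 ligands that were among the strongest risers of the culture and that come from different places in the genome or different ligand families. They are the 250 bases before the start, from RefSeq promoters of GRCm38.p6, on the strand of the gene. Capitals mark TATAAA in Cxcl9 and Ccl8 and, as the second run of capitals in Cxcl9, the reverse complement of GGGNNTTTC. No motif was found in Cxcl12 or Ccl6. Cxcl12 lies on the plus strand, Cxcl9 on the minus strand, Ccl8 on the plus strand and Ccl6 on the minus strand.
Cxcl12 (chr6:117168285-117168534): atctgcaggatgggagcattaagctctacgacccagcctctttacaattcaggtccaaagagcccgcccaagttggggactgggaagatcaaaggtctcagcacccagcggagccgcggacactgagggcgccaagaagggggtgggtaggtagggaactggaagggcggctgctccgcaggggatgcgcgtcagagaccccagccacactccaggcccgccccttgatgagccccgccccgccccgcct
Cxcl9 (chr5:92328080-92328329): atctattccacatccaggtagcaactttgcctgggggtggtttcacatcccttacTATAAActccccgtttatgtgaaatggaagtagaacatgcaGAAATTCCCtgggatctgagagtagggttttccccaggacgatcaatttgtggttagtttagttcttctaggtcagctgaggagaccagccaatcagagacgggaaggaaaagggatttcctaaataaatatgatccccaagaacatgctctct
Ccl8 (chr11:82114935-82115184): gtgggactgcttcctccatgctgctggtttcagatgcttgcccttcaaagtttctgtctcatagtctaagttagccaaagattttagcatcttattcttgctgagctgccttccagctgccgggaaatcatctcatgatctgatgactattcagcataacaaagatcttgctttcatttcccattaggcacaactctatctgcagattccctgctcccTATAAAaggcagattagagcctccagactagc
Ccl6 (chr11:83593088-83593337): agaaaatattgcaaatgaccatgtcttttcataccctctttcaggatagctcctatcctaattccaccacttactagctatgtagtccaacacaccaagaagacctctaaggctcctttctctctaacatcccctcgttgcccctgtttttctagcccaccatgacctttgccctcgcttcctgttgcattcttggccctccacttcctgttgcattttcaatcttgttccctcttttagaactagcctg

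Of the 34 ligands 23 had an entry in this promoter table, with 26 promoters among them. Ccl11, Ccl2, Ccl24, Ccl26, Ccl4, Ccl5, Ccl7, Cxcl11, Cxcl16, Cxcl17 and Cxcl5 had none. Motifs of 3 kinds were searched on both strands in the 250 bases before each start. The TATA letters TATAAA stood in 9 of the 23 ligands and in 12.4% of all 32851 promoters. The letters GGGNNTTTC, a core of the NF-κB motif, stood in 7 of the 23, namely Ccl20, Ccl9, Cxcl1, Cxcl2, Cxcl3, Cxcl9 and Xcl1, and in 3.72% of all promoters. The letters TTTCNNTTT, a core of the interferon response motif, stood in 3 of the 23, namely Ccl28, Cxcl10 and Cxcl14, and in 9.37% of all promoters. The ligands are counted as genes with a match in any of their promoters, while the shares of all promoters count each promoter singly. A match is a run of letters and no proof of a binding site.

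The NF-κB matches are shown because Cxcl1 and Cxcl2 are neighbouring genes that attract neutrophils and carry 2 matches each, while Ccl9 and Cxcl9 are the 2 of the 7 ligands with a match that were called higher during the culture. Each window spans 39 bases on the strand of the gene, with the match in capitals. The matches of Ccl9 and the first of Cxcl1 lie on the opposite strand, so their letters read as the reverse complement.
Cxcl1, first match (chr5:90891142-90891180): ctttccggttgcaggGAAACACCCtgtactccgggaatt
Cxcl1, second match (chr5:90891159-90891197): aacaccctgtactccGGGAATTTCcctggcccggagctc
Cxcl2, first match (chr5:90903787-90903825): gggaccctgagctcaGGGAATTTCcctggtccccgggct
Cxcl2, second match (chr5:90903806-90903844): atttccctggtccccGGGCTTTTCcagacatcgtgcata
Ccl9 (chr11:83578647-83578685): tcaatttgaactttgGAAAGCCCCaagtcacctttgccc

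Of the 34 ligands 25 reached the median of their array in at least 3 of the 24 arrays and were tested. The other 9, Ccl1, Ccl22, Ccl24, Ccl26, Cxcl11, Cxcl15, Cxcl2, Cxcl3 and Xcl1, did not, and 7 of them were below the median on all 24 arrays (Ccl1 and Ccl24 being the exceptions). Their values ran from 0.95 for Cxcl3 to 5.16 for Ccl24. At the other end, 11 ligands were at or above the array median on all 24 arrays: Ccl2, Ccl20, Ccl25, Ccl5, Ccl7, Ccl9, Cx3cl1, Cxcl12, Cxcl14, Cxcl16 and Cxcl5. Ccl12, Ccl3, Ccl6, Ccl8 and Cxcl9 lay below the median on all 6 day 2 arrays and entered the test through later days, so for these 5 the size of a rise is uncertain and a rise was a condition of being tested. Ccl17 entered through its early arrays in the same way.

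**Figure D1:**
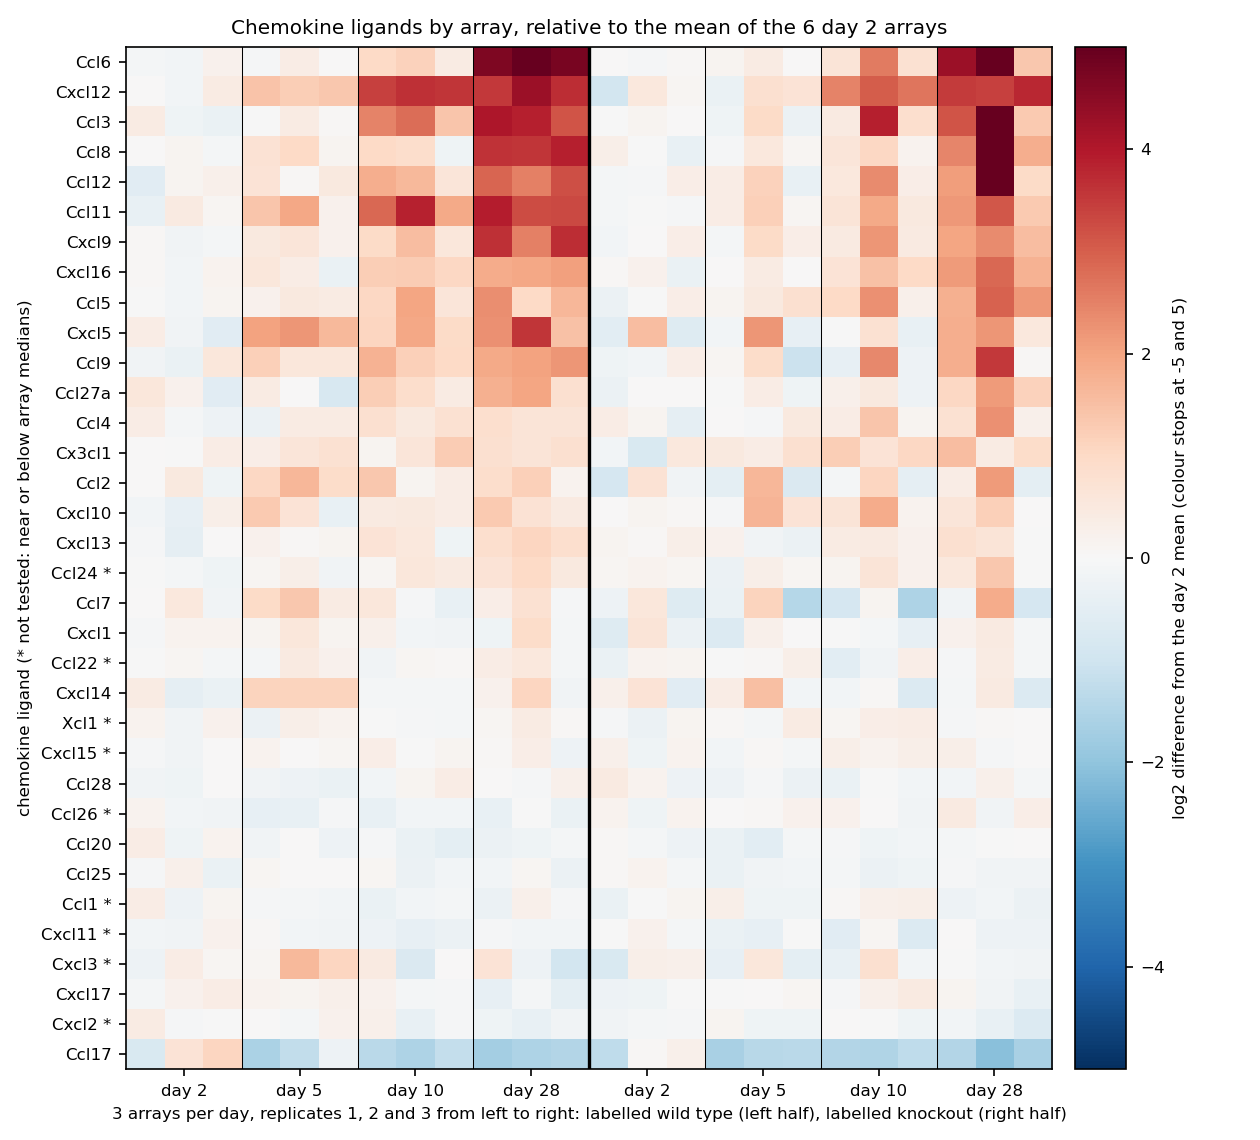
Log2 RMA value of each of the 34 ligands minus its day 2 mean, by array; columns are the 24 arrays ordered by labelled genotype, day and replicate. Ccl6, Ccl3, Ccl8 and Cxcl12 show large rises by day 28 in both genotypes.

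By day 28 13 ligands were higher than on day 2 in the cells labelled wild type and 13 in the cells labelled knockout, while 2 and 1 were lower. In the labelled wild type 15 of the 25 tested ligands were called (60.0%), against a background of 38.8% of all 14892 tested genes in either direction (19.6% higher and 19.2% lower; limma, adjusted p under 0.05). In the labelled knockout 14 of 25 were called (56.0%), with a background of 38% (19.4% higher and 18.6% lower). With untested genes counted as not called, the shares were 44.1% and 41.2% of the 34 ligands, beside 26.0% and 25.5% of all 22180 genes. Of the calls 13 of 15 and 13 of 14 were rises. The 5 ligands that could be tested only through their late levels are among these rises, so the shares are no support by themselves. The median change over all 34 members was 0.63 in the labelled wild type and 0.45 in the labelled knockout, beside -0.05 and -0.04 over all genes. Of the called ligands 12 were shared with the same direction, 80.0% of the first list and 85.7% of the second.

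Some ligands were called by day 10. Against day 2, 5 ligands rose and 2 fell in the labelled wild type, 28% of the 25 tested. The background was 30.7% in either direction, 14.4% higher and 16.2% lower. In the labelled knockout 4 rose and 0 fell (16%, background 24.6%, with 11.1% higher and 13.6% lower). Neither share of calls in either direction exceeded its background, so these counts are no result about the ligands. On day 5 a single ligand, Cxcl12, was called in the labelled wild type (background 5.55%, with 2.85% higher and 2.69% lower). No ligand was called on day 5 in the labelled knockout by limma, where 3 of 25 had an unadjusted p under 0.05 and 2.77% of all genes were called, 1.54% higher and 1.23% lower. Between neighbouring days, 3 ligands rose from day 5 to 10 and 3 from day 10 to 28 in the labelled wild type and none fell. The backgrounds there were 10.5% (6.02% higher and 4.46% lower) and 1.02% (0.94% higher and 0.0806% lower). In the labelled knockout 2 rose in each of these steps, with backgrounds of 4.76% (2.58% higher and 2.18% lower) and 1.65% (1.32% higher and 0.329% lower).

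Replicate numbers paired the arrays in several of these steps. A fit that blocked on the number called more ligands there, except on day 5 of the labelled knockout, where it called none. The count rose from 1 to 5 for day 5 against day 2 and from 3 to 7 for day 10 against day 5 in the labelled wild type. For the labelled knockout it rose from 4 to 8 for day 10 against day 2 and from 2 to 6 for day 28 against day 10. In the same steps the calls over all tested genes rose too. They went from 826 to 1366 and from 1560 to 2247 in the labelled wild type. In the labelled knockout they went from 3665 to 4496 and from 245 to 704. The gain was thus not particular to the ligands. The ligands gained are named with their genes below. With only the compared groups in the fit, Ccl2, Cxcl14 and Cxcl5 gained a call for day 5 against day 2 in the labelled wild type, and Ccl12, Ccl3, Ccl4, Ccl6, Ccl9 and Cxcl5 gained one for day 10 against day 2.

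**Figure D2:**
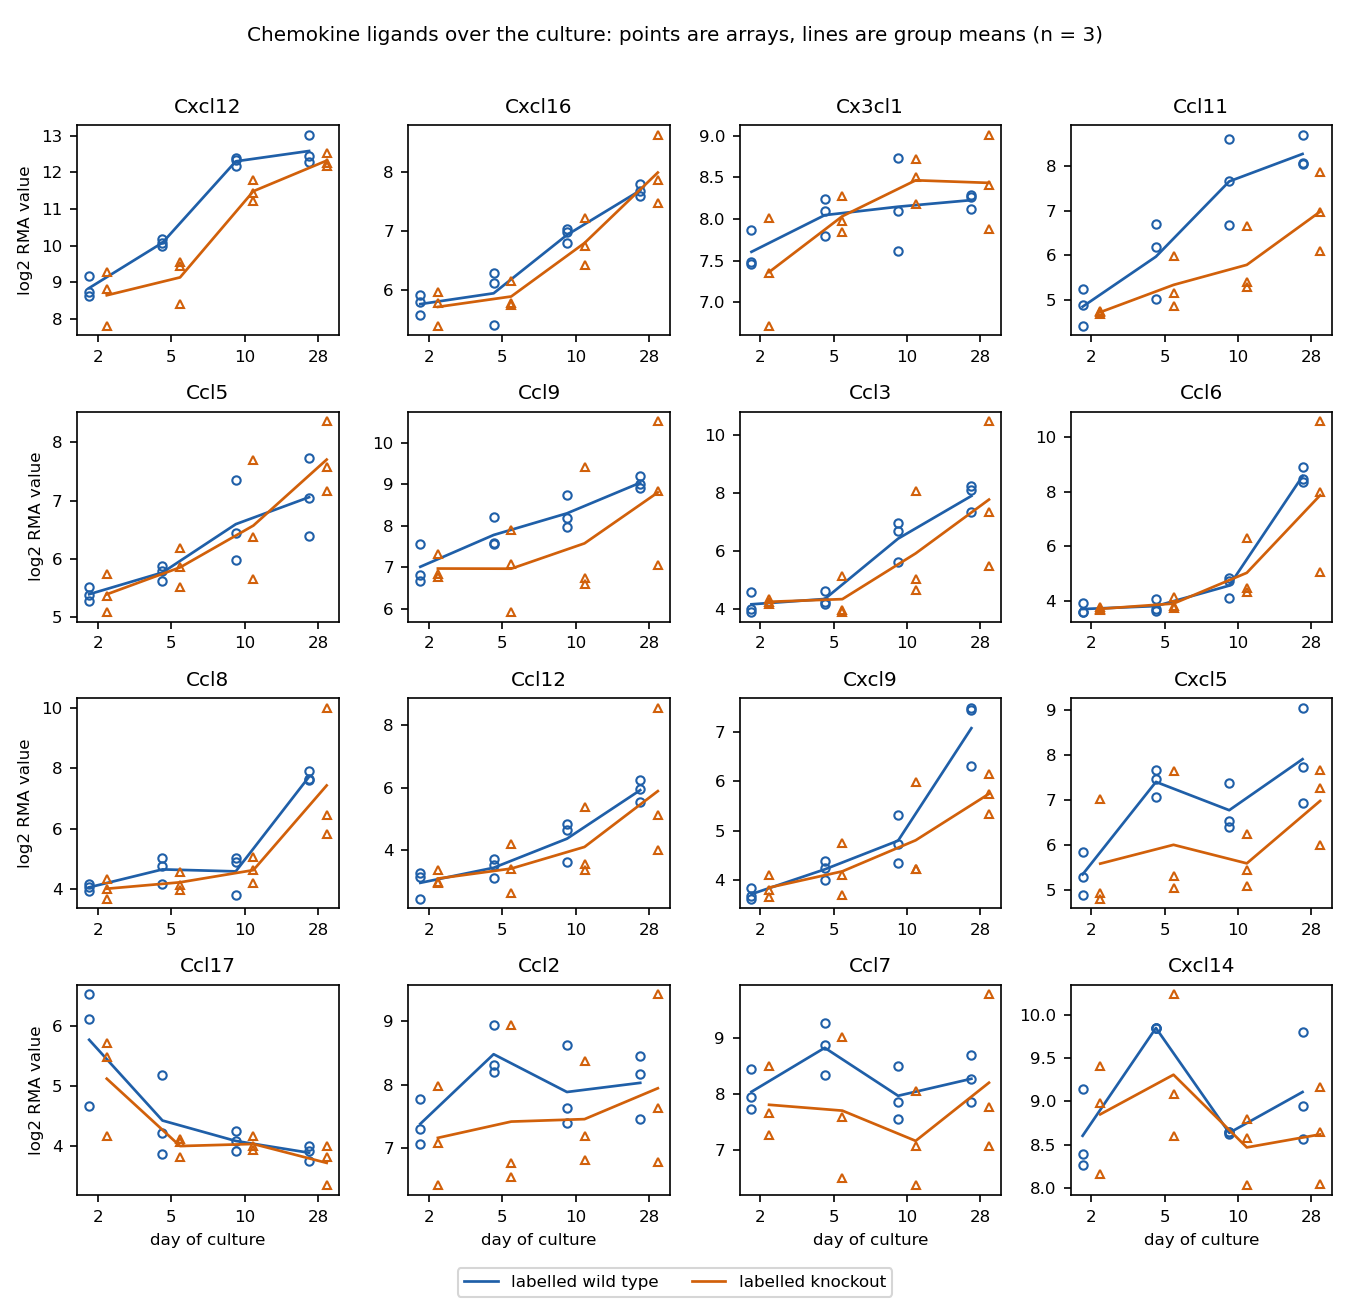
Log2 RMA value against day of culture for 16 ligands; circles are arrays labelled wild type, triangles arrays labelled knockout, and lines join the means of 3 arrays. Cxcl12 climbs by day 10, Ccl6 and Ccl8 climb after day 10, and Ccl17 falls after day 2.

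Cxcl12 was the single ligand called on day 5 without a block. This CXC ligand of Cxcr4 was at 8.75, 8.62 and 9.18 on the day 2 arrays labelled wild type and at 10.17, 9.99 and 10.09 on day 5. It reached 12.16, 12.40 and 12.34 on day 10 and 12.27, 13.02 and 12.44 on day 28. All arrays of days 5, 10 and 28 lay above all of day 2, and the arrays of days 10 and 28 overlapped. The log2 change against day 2 was 1.23 on day 5 (SE 0.31, limma adjusted p = 0.0218), 3.45 on day 10 (10.9-fold, adjusted p = 2.28e-07) and 3.73 on day 28 (13.3-fold, adjusted p = 3.43e-08). The day 5 call ended without replicate 1 or 2 of either day (adjusted p up to 0.106).

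Among arrays labelled knockout, Cxcl12 was at 7.83, 9.29 and 8.84 on day 2 and at 8.41, 9.56 and 9.44 on day 5, and these arrays overlapped. It was at 11.23, 11.79 and 11.44 on day 10 and at 12.25, 12.17 and 12.54 on day 28, all above the earlier arrays. The change against day 2 was 0.49 on day 5 (adjusted p = 0.500), 2.83 on day 10 (7.13-fold, adjusted p = 4.02e-06) and 3.67 on day 28 (12.7-fold, adjusted p = 8.37e-08). From day 5 to day 10 Cxcl12 rose by 2.22 in the labelled wild type and by 2.35 in the labelled knockout (adjusted p = 0.000125 and 0.000316). These steps and the rises by days 10 and 28 kept their calls in every fit that left out 1 array.

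Cxcl16 and Cx3cl1 are chemokines with a membrane anchor, which can act as adhesion molecules or be shed. Cxcl16 was at 5.80, 5.59 and 5.92 on day 2 of the labelled wild type, 6.98, 7.03 and 6.80 on day 10 and 7.59, 7.67 and 7.79 on day 28, with no overlap between these days. Its log2 change was 1.17 by day 10 (adjusted p = 0.0017) and 1.92 by day 28 (3.78-fold, adjusted p = 8.26e-06). Arrays labelled knockout went from 5.79, 5.96 and 5.40 through 6.43, 7.22 and 6.74 to 7.85, 8.63 and 7.48, again without overlap. There the changes were 1.08 (adjusted p = 0.00445) and 2.27 (4.82-fold, adjusted p = 1.82e-06).

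Day 5 means of Cxcl16 were 5.95 ± 0.46 and 5.90 ± 0.22 (SD, n = 3), close to day 2. Its rise from day 5 to 10 was called in both genotypes (0.98 and 0.90, adjusted p = 0.0174 and 0.0474), and its rise from day 10 to 28 was called in the labelled knockout (1.19, adjusted p = 0.0206) and not in the labelled wild type (0.75, adjusted p = 0.230). These step calls ended when 1 of several arrays was left out. In the labelled wild type these were replicate 3 of day 5 and replicate 2 of day 10 (adjusted p up to 0.124). The first step of the labelled knockout lost its call in 5 of 6 such fits (up to 0.223) and its second step without replicate 1 or 3 of day 10 or replicate 2 of day 28 (up to 0.149). Both knockout step calls also ended when only the compared groups were fitted (0.209 for the second).

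Cx3cl1, or fractalkine, the ligand of Cx3cr1 on monocytes, was at 7.35, 6.72 and 8.02 on day 2 of the labelled knockout. It was at 8.72, 8.18 and 8.50 on day 10, above day 2, and at 9.01, 7.88 and 8.41 on day 28, where the lowest array fell within the day 2 range. The log2 changes were 1.10 and 1.07 (adjusted p = 0.0114 and 0.00826). In the labelled wild type the means were 7.61 ± 0.23, 8.05 ± 0.23, 8.15 ± 0.56 and 8.23 ± 0.09 over the 4 days, and the day 28 change of 0.62 was not called (adjusted p = 0.113). That change was called with only the compared groups in the fit (adjusted p = 0.0112) and with array quality weights (0.69, adjusted p = 0.0242). The knockout calls ended without replicate 2 of day 2 (adjusted p = 0.0823 for day 10 and up to 0.067 for day 28), and the day 28 call also without replicate 1 of day 28 and with only the compared groups in the fit (0.0715).

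Cxcl14, a CXC ligand made by skin and stromal cells, had its highest mean on day 5. Its means were 8.60 ± 0.48, 9.85 ± 0.00, 8.64 ± 0.02 and 9.11 ± 0.64 over the days in the labelled wild type, where the 3 day 5 arrays all read 9.85 to 2 decimals. They were 8.85 ± 0.63, 9.31 ± 0.84, 8.47 ± 0.40 and 8.62 ± 0.56 in the labelled knockout. In the fit to all arrays without a block or weights it was called in no comparison (day 5 against day 2 in the labelled wild type: 1.25, adjusted p = 0.0697). With the replicate block, it rose by 1.25 from day 2 to 5 (adjusted p = 0.005) and fell by 1.21 from day 5 to 10 (adjusted p = 0.0038) in the labelled wild type. The block also called the day 5 to 10 change of -0.84 in the labelled knockout (adjusted p = 0.0474). The fall in the labelled wild type did not need the block. It was called with only the compared groups in the fit (limma adjusted p = 0.00212) and with array quality weights (0.0447). It was also called with a stricter filter on low values (0.0497) and with a variance trend and robust prior (0.0488).

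Cxcl13, a B cell attractant, and Cxcl17, a mucosal chemokine, were called in the labelled wild type alone in the fit to all arrays. Cxcl13 rose from 4.55, 4.15 and 4.61 on day 2 to 5.44, 5.67 and 5.42 on day 28 in the labelled wild type, without overlap (log2 change 1.07, adjusted p = 0.000544). Its day 2 arrays there lay below their medians. The means on days 5 and 10 were 4.73 ± 0.07 and 4.92 ± 0.48, and in the labelled knockout the 4 means were 4.76 ± 0.11, 4.53 ± 0.27, 4.97 ± 0.13 and 5.08 ± 0.43 with no call. Without replicate 3 of day 28 the day 28 change of Cxcl13 in the labelled knockout was called (0.57, limma adjusted p = 0.0451). Cxcl17 fell by 0.50 by day 28 in the labelled wild type (adjusted p = 0.0169), and that call ended in 4 of 6 fits without 1 array (up to 0.0936). Its group means all lay between 4.31 and 4.84. In the labelled knockout Cxcl17 was called higher on day 10 than on day 2 without replicate 1 of day 10 (0.50, limma adjusted p = 0.0406).

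Ccl11, or eotaxin, which attracts eosinophils through Ccr3, rose by day 10 in the labelled wild type. It was at 4.42, 5.24 and 4.88 on day 2 and at 7.67, 8.62 and 6.69 on day 10, with 8.71, 8.05 and 8.07 on day 28. All arrays of days 10 and 28 lay above those of day 2. The change was 2.81 by day 10 (7.02-fold, adjusted p = 0.000271) and 3.43 by day 28 (10.8-fold, adjusted p = 2.28e-05). Day 5 was in between, at 5.97 ± 0.87. The rise from day 5 to 10 was 1.69 (adjusted p = 0.0351), and it was lost in 4 of 6 fits without 1 array (up to 0.205) and when only the compared groups were fitted (0.117).

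The arrays labelled knockout showed a smaller Ccl11 signal at the later days. They read 4.69, 4.76 and 4.73 on day 2, 5.41, 6.67 and 5.29 on day 10 and 6.96, 7.87 and 6.11 on day 28, with a mean of 5.34 ± 0.58 on day 5. Neither day 10 nor day 28 overlapped day 2. The day 10 change of 1.06 was not called (adjusted p = 0.132) without the block and was called with it (adjusted p = 0.0324). The day 28 change was 2.26 (4.78-fold, adjusted p = 0.00137). The other Ccr3 ligands, Ccl24 and Ccl26, were not tested. Ccl24 had group means between 3.72 and 4.54, and its highest array was replicate 2 of day 28 labelled knockout at 5.16. With no filter on low values its day 28 change in the labelled wild type was called (0.82, limma adjusted p = 0.0156).

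Ccl3, Ccl4, Ccl5, Ccl6 and Ccl9, CC ligands that draw monocytes and other leukocytes, form 1 run of ligand genes on chromosome 11. All 5 were tested, and 4 rose by day 28 in the labelled wild type and 5 in the labelled knockout. Of all tested genes 19.6% and 19.4% rose. The median changes of the 5 ligands were 2.02 and 2.31. Ccl3 and Ccl6 could be tested only through their later days, so for them a rise was a condition of being tested. Ccl6 changed most. It read 3.59, 3.57 and 3.90 on day 2 and 8.35, 8.92 and 8.45 on day 28 in the labelled wild type, far apart (log2 change 4.89, adjusted p = 6.49e-05). Most of that came after day 10, when it read 4.71, 4.84 and 4.10. The rise from day 10 to 28 was 4.02 (16.3-fold, adjusted p = 0.0121), and it was lost without replicate 3 of day 10 or replicate 2 of day 28 (up to 0.0823).

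The labelled knockout arrays were far less uniform for Ccl6. They read 3.70, 3.64 and 3.75 on day 2, 4.32, 6.29 and 4.45 on day 10 and 7.98, 10.59 and 5.04 on day 28. Each later array lay above day 2, while the day 28 arrays had an SD of 2.78 against 0.30 in the labelled wild type. The day 28 change was 4.18 (adjusted p = 0.000336). From day 10 to 28 the change of 2.85 was not called without the block (adjusted p = 0.0711) and was called with it (adjusted p = 0.025). Day 5 means were 3.80 ± 0.23 and 3.89 ± 0.21 in the labelled wild type and knockout.

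Ccl3, or MIP-1α, rose in both genotypes. In the labelled wild type it read 4.61, 4.01 and 3.90 on day 2, 6.70, 6.99 and 5.62 on day 10 and 8.25, 8.12 and 7.37 on day 28, with no overlap between these days. The labelled knockout read 4.19, 4.35 and 4.24, then 4.65, 8.09 and 5.05, then 7.36, 10.49 and 5.51. The second replicate was highest on both later days. The day 28 change was 3.74 in the labelled wild type and 3.53 in the labelled knockout (adjusted p = 0.00195 and 0.00321), and the day 10 changes of 2.26 and 1.67 were not called (adjusted p = 0.0545 and 0.176). The former was called with only the compared groups in the fit (adjusted p = 0.00129), with array quality weights (2.33, adjusted p = 0.0133) and without replicate 3 of day 10 (2.67, adjusted p = 0.0477). With the block Ccl3 was called for day 10 against day 5 in the labelled wild type (2.08, adjusted p = 0.0275) and against day 2 in the labelled knockout (1.67, adjusted p = 0.0454). Day 5 means were 4.36 ± 0.24 and 4.35 ± 0.70.

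Ccl5, or RANTES, read 5.39, 5.28 and 5.52 on day 2 and 7.73, 6.40 and 7.05 on day 28 in the labelled wild type. Arrays labelled knockout read 5.09, 5.36 and 5.74, and then 7.17, 8.36 and 7.58. The days did not overlap in either genotype. The changes were 1.66 and 2.31 (adjusted p = 0.00395 and 0.000253). On day 10 its means were 6.60 ± 0.70 and 6.57 ± 1.04, with changes of 1.20 and 1.18 that passed narrowly (adjusted p = 0.0372 and 0.0482) and failed in 5 of 6 fits without 1 array in each genotype (up to 0.197 and 0.308). The knockout call also ended with no filter and with only the compared groups. Day 5 means were 5.77 ± 0.14 and 5.86 ± 0.33.

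Ccl9, a mouse chemokine that acts on Ccr1 of osteoclast precursors, was already above the array median on day 2. It read 6.82, 6.67 and 7.55 on day 2 and 8.91, 9.0 and 9.21 on day 28 in the labelled wild type, without overlap. Arrays labelled knockout read 6.76, 6.84 and 7.31, and then 8.83, 10.52 and 7.07, so that the lowest late array fell within the early range. The changes were 2.02 and 1.83 (adjusted p = 0.0255 and 0.0428), and each call ended in 5 of 6 fits without 1 array (up to 0.0812 and 0.280). The knockout call also ended with no filter on low values, with array quality weights and with only the compared groups. Day 5 and 10 means were 7.78 ± 0.37 and 8.30 ± 0.40 in the labelled wild type and 6.97 ± 1.00 and 7.58 ± 1.59 in the labelled knockout.

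Ccl4, or MIP-1β, a close relative of Ccl3, was called in the labelled knockout alone. There its means were 4.71 ± 0.42, 4.87 ± 0.29, 5.34 ± 0.66 and 5.79 ± 1.06 over the days, with a day 28 array of replicate 2 at 6.98. The change of 1.08 (adjusted p = 0.0314) ended without replicate 2 or 3 of day 2 or replicate 2 of day 28 (up to 0.261), with array quality weights and with only the compared groups in the fit. In the labelled wild type the means were 4.69 ± 0.32, 4.87 ± 0.41, 5.38 ± 0.17 and 5.39 ± 0.11, and the change was 0.70 (adjusted p = 0.162). It was called there with only the compared groups in the fit (adjusted p = 0.0145) and with array quality weights (0.73, adjusted p = 0.0371).

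Ccl8, a ligand of Ccr8 in mouse, was called on day 28 and on no earlier day. In the labelled wild type it read 4.06, 4.15 and 3.93 on day 2, 5.03, 4.90 and 3.81 on day 10 and 7.63, 7.62 and 7.90 on day 28. The labelled knockout read 4.34, 4.0 and 3.67, then 4.62, 5.05 and 4.19, then 6.46, 10.00 and 5.83. In both genotypes all day 28 arrays lay above all earlier ones. The day 28 change against day 2 was 3.67 and 3.43 (adjusted p = 0.000154 and 0.000318), and against day 10 it was 3.14 and 2.81 (adjusted p = 0.0167 and 0.0298). The calls against day 10 ended in 4 of 6 fits without 1 array in the labelled wild type (up to 0.14) and without replicate 1 or 3 of day 10 in the labelled knockout (up to 0.125), where only the compared groups in the fit gave 0.301. Day 5 means were 4.64 ± 0.45 and 4.22 ± 0.32.

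Among the Ccr2 ligands, the main attractants of inflammatory monocytes, Ccl12 rose and Ccl2 and Ccl7 were not called at any step of the unblocked fit. Ccl12 read 2.46, 3.16 and 3.29 on day 2 and 5.96, 5.56 and 6.25 on day 28 in the labelled wild type, and 2.95, 2.99 and 3.36 and then 5.13, 8.55 and 4.0 in the labelled knockout. Neither pair of days overlapped. The changes were 2.96 and 2.79 (adjusted p = 0.00367 and 0.0058), and with only the compared groups in the fit the latter was not called (0.0758). Day 5 and 10 means were 3.45 ± 0.31 and 4.37 ± 0.64 in the labelled wild type and 3.42 ± 0.78 and 4.11 ± 1.11 in the labelled knockout.

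Ccl2, or MCP-1, had means of 7.39 ± 0.36, 8.48 ± 0.39, 7.88 ± 0.64 and 8.03 ± 0.51 in the labelled wild type and 7.17 ± 0.78, 7.42 ± 1.31, 7.46 ± 0.81 and 7.94 ± 1.34 in the labelled knockout. It was thus well measured from day 2 on, and its day 28 changes of 0.64 and 0.78 missed the threshold (adjusted p = 0.447 and 0.358). With the block its day 5 rise in the labelled wild type, 1.09, was called (adjusted p = 0.0425). Ccl7, or MCP-3, had means of 8.04 ± 0.37, 8.83 ± 0.46, 7.97 ± 0.48 and 8.27 ± 0.42, and of 7.81 ± 0.63, 7.70 ± 1.27, 7.17 ± 0.85 and 8.20 ± 1.41. The block called its changes of -0.86 from day 5 to 10 in the labelled wild type and of 1.04 from day 10 to 28 in the labelled knockout (adjusted p = 0.0267 and 0.0263).

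Of the Cxcr3 ligands, which interferon induces and which attract activated T cells, Cxcl9 rose in both genotypes. It read 3.85, 3.63 and 3.69 on day 2, 4.74, 5.32 and 4.34 on day 10 and 7.44, 6.31 and 7.49 on day 28 in the labelled wild type. Arrays labelled knockout read 3.66, 3.80 and 4.11, then 4.22, 5.98 and 4.22, then 5.74, 6.16 and 5.35. Day 28 lay above day 2 on every array. The day 28 change was 3.35 (10.2-fold, adjusted p = 2e-06) and 1.90 (3.72-fold, adjusted p = 0.000822).

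By day 10 Cxcl9 had changed by 1.08 in the labelled wild type (adjusted p = 0.0442, lost in 5 of 6 fits without 1 array, up to 0.184, and with no filter, 0.0584). The change in the labelled knockout was 0.96 (adjusted p = 0.0853, and 0.0461 with the block). From day 10 to 28 it rose by 2.27 in the labelled wild type (adjusted p = 0.00419). Day 5 means were 4.22 ± 0.20 and 4.18 ± 0.53. Its neighbour Cxcl10, or IP-10, was not called, with day 28 changes of 0.90 and 0.51 (adjusted p = 0.120 and 0.399). The former was called with only the compared groups in the fit (adjusted p = 0.0226) and with array quality weights (1.19, adjusted p = 0.019). The third member, Cxcl11, was below the array median on every array.

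The Cxcr2 ligands, which attract neutrophils, were mostly low. Of the 5, Cxcl1 and Cxcl5 were tested. Cxcl5, also known as LIX, read 5.85, 5.31 and 4.90 on day 2, 7.48, 7.67 and 7.08 on day 5 and 7.75, 9.05 and 6.94 on day 28 in the labelled wild type, where both later days lay above day 2. The day 28 rise was 2.56 (5.91-fold, adjusted p = 0.00417). The day 5 change of 2.06 was called with the block (adjusted p = 0.002) and not without it (0.0769). The day 10 mean was 6.78 ± 0.53.

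Cxcl5 split by replicate in the labelled knockout from the start. Replicate 2 read 7.02 on day 2 and 7.66 on day 5, while replicates 1 and 3 read 4.94 and 4.81 and then 5.33 and 5.04. On day 28 the arrays read 7.27, 7.67 and 6.02, after a day 10 mean of 5.60 ± 0.59. The day 28 change of 1.39 was not called without the block (adjusted p = 0.105) and was called with it (adjusted p = 0.0044), as was the change of 1.39 from day 10 (adjusted p = 0.0358). Cxcl1 stayed between 4.54 and 6.13 on all arrays and was not called. Cxcl2, Cxcl3 and Cxcl15 were below the array median on every array.

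Ccl17, which attracts Ccr4-bearing T cells and is known from dendritic cells, fell. It read 4.66, 6.12 and 6.53 on day 2 of the labelled wild type, 4.09, 3.92 and 4.24 on day 10 and 3.74, 3.92 and 4.0 on day 28, with no overlap with day 2. The log2 change was -1.69 by day 10 (adjusted p = 0.0031) and -1.88 by day 28 (adjusted p = 0.000918). The labelled knockout read 4.17, 5.49 and 5.71 on day 2 and 3.99, 3.34 and 3.82 on day 28, again without overlap (change -1.40, adjusted p = 0.00877, lost without replicate 3 of day 2 at 0.0604). Replicate 1 was the lowest of the day 2 arrays in both genotypes.

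Between these days Ccl17 averaged 4.42 ± 0.69 on day 5 in the labelled wild type, and 4.0 ± 0.16 and 4.03 ± 0.12 on days 5 and 10 in the labelled knockout. The block called its day 5 change of -1.35 in the labelled wild type and its day 10 change of -1.09 in the labelled knockout (adjusted p = 0.0184 and 0.0211). All 3 late arrays of each genotype lay below their medians, so the depth of the fall is uncertain.

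Of the remaining ligands, which serve skin and gut, Ccl27a was called in both genotypes. Ccl27a, a skin chemokine for Ccr10, rose by 1.43 and 1.52 by day 28 (adjusted p = 0.00371 and 0.00248), from 4.64 ± 0.57 to 6.07 ± 0.62 and from 4.48 ± 0.19 to 6.00 ± 0.60, without overlap. Day 5 and 10 means were 4.43 ± 0.61 and 5.39 ± 0.41, and 4.61 ± 0.30 and 4.72 ± 0.38. The block called Ccl27a also from day 5 to 10 in the labelled wild type (0.96, adjusted p = 0.0022) and from day 10 to 28 in the labelled knockout (1.28, adjusted p = 0.0014). The mouse genome holds near-identical copies of this gene, so its signal cannot be assigned to 1 copy. Ccl20, the intestinal ligand of Ccr6, fell by 0.41 by day 10 in the labelled wild type (adjusted p = 0.046). That call was lost in 4 of 6 fits without 1 array, with no filter on low values, and when only the compared groups were fitted (up to 0.225). Its group means lay between 4.84 and 5.26. Ccl25 stayed between 5.42 and 5.99 and Ccl28 between 4.42 and 5.21 over all arrays, with no call in the fit to all arrays. With array quality weights Ccl28 was called higher on day 10 in the labelled wild type. The changes were 0.37 against day 2 and 0.47 against day 5 (limma adjusted p = 0.0395 and 0.0372). In the labelled knockout its day 10 change was called lower without replicate 3 of day 2 (-0.49, adjusted p = 0.0489).

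**Figure D3:**
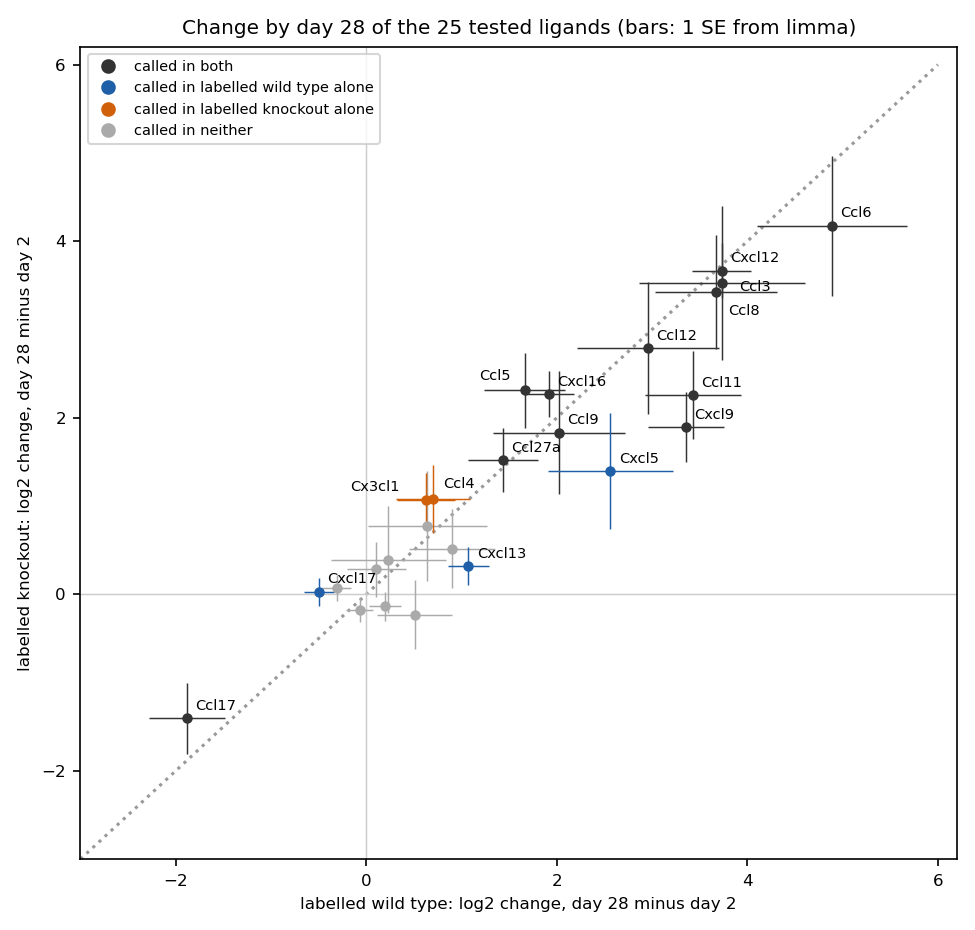
Log2 change from day 2 to day 28 of the 25 tested ligands in the labelled wild type (horizontal) and the labelled knockout (vertical), with bars of 1 SE from limma and a dotted line of equal change. The 12 ligands called in both genotypes include Ccl6 at 4.89 and 4.18 and Ccl17 at -1.88 and -1.40; 3 were called in the labelled wild type alone and 2 in the labelled knockout alone.

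Macrophage markers rose beside these ligands. The mean of 15 macrophage markers lay between 4.63 and 4.76 on day 2, 4.78 and 5.14 on day 5, 6.62 and 7.51 on day 10 and 8.0 and 9.01 on day 28 in the labelled wild type. For the labelled knockout it lay between 4.71 and 5.44, 4.63 and 6.41, 5.42 and 8.84, and 7.05 and 10.48. All 15 markers were called higher on day 28 in both genotypes (medians 3.29 and 3.52), and 9 and 2 of them on day 10. Of all tested genes 19.6% and 19.4% were called higher by day 28, and 19.2% and 18.6% lower. By day 10, 14.4% and 11.1% were called higher. The 2 of 15 in the labelled knockout on day 10 (13.3%) lie near that share, so this count is no result about the list. Mrc1, a mannose receptor of tissue macrophages, rose by 5.77 and 5.42 by day 28, and Adgre1, which encodes F4/80, by 4.97 and 5.06. Adipocyte markers rose too, 6 of 6 by day 28 in each genotype. Of 5 markers of the marrow stroma rich in Cxcl12, 3 rose and 1 fell in the labelled wild type, and 2 rose and 1 fell in the labelled knockout (Pdgfra 2.73 and 2.54, Lepr -2.36 and -2.22). In bulk RNA, more cells of a type and more RNA per cell cannot be told apart. The part of these cells in the rise of the ligands was not tested.

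Markers of most other blood cells stayed low. None of 3 B cell markers reached the array median on any array, and at most 1 of 6 neutrophil and 1 of 4 mast cell markers did so in any group. Of 6 T cell markers, 1 to 4 had an array at or above the median in a group, with Cd4, which macrophages can also express, the single T cell marker called higher on day 28. Of 4 NK cell markers 2 did so in every group. Of 5 dendritic cell markers 1 and 0 rose by day 28, and of 7 endothelial markers 1 rose in each genotype and 1 fell in the labelled wild type. Beside the 19.6% and 19.4% of all tested genes that rose, these few calls are no result about the lists. The levels kept to narrow ranges, 3.75 to 4.46 for T cells, 3.24 to 3.69 for neutrophils, 3.60 to 4.03 for B cells and 3.94 to 4.78 for NK cells as means over the list. The mean of the 5 dendritic cell markers lay between 4.61 and 4.68 on day 2 and between 4.57 and 5.26 on day 28 in the labelled wild type, and between 4.73 and 4.83 and then 4.86 and 5.44 in the labelled knockout. Its highest array was replicate 2 of day 28 labelled knockout. The part of these cells in the rise of the ligands was not tested either.

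Replicate 2 of the labelled knockout stood apart. It had the highest macrophage marker mean of its 3 arrays on every day. It was also the highest of the 3 for 15, 20, 22 and 22 of the 34 ligands on days 2, 5, 10 and 28. On day 2 this was 44.1% of ligands against 30.1% of all genes, and on day 5 58.8% against 27.8%. On days 10 and 28 it was 64.7% against 32.6% and 29.1%. In the labelled wild type the share reached 50% for replicate 1 of day 10 and replicate 2 of day 28, against 37.5% and 38.3%. The day 2 share of the labelled knockout replicate thus does not set it apart. Replicate 3 had the lowest macrophage mean of the day 28 arrays and was the highest for 2 ligands there.

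**Figure D4:**
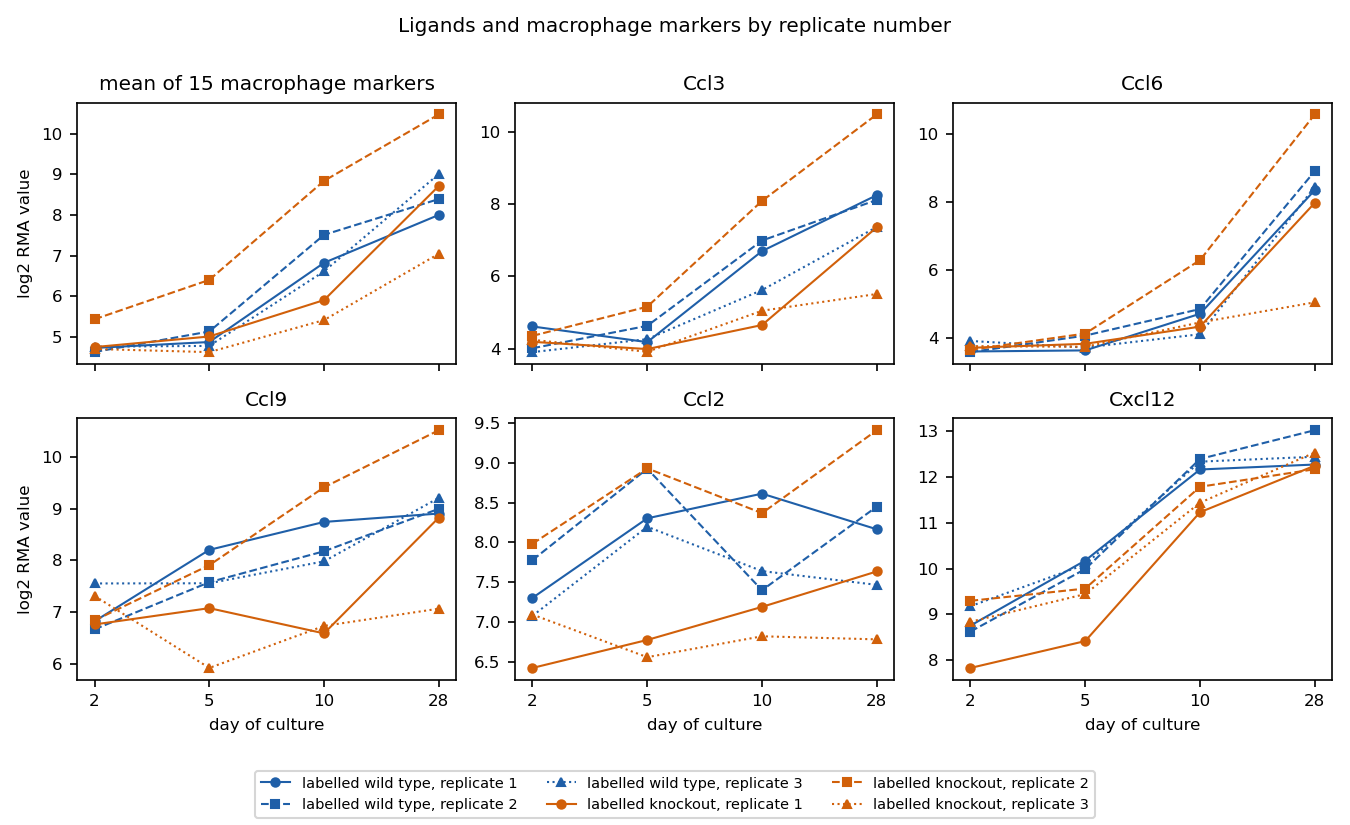
Log2 RMA value against day for the mean of 15 macrophage markers and for Ccl3, Ccl6, Ccl9, Ccl2 and Cxcl12, with 1 line for each replicate number of each labelled genotype. Replicate 2 of the labelled knockout (dashed orange) is highest for the macrophage mean, Ccl3 and Ccl6 on days 10 and 28, at 10.48, 10.49 and 10.59 on day 28, while Cxcl12 ends within 12.17 to 13.02 on all 6 lines.

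Without that replicate on all days, a choice made after seeing the data, 12 ligands were called on day 28 of the labelled knockout in place of 14. Ccl6, Ccl3, Ccl8 and Ccl12 stayed called with smaller changes of 2.79, 2.22, 2.14 and 1.41. The calls of Ccl17, Ccl4 and Ccl9 ended (limma adjusted p = 0.150, 0.182 and 0.166), and Cxcl5 gained one (1.77, adjusted p = 0.0178). Cxcl12 changed by 4.06, against 3.67 with all arrays. On day 10 the count went from 4 to 2, with Cx3cl1 and Ccl5 lost (adjusted p = 0.0535 and 0.385), and from day 5 to 10 from 2 to 1, with Cxcl16 lost (adjusted p = 0.165).

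Between the labelled genotypes no ligand was called on any day in the fit to all arrays without a block. With limma, 1, 2, 2 and 2 of the 25 tested had an unadjusted p under 0.05 on days 2, 5, 10 and 28, and the share of all genes called was 0.00672%, 0.00672%, 0.0336% and 0.228%. On day 10 this was 0.00672% higher and 0.0269% lower in the labelled knockout, and on day 28 it was 0.00672% higher and 0.222% lower. The differences between genotypes in the change from day 2 gave no call either, with 0, 3 and 3 ligands at an unadjusted p under 0.05 for days 5, 10 and 28 (0%, 0% and 0.00672% of all genes called). So the ligands called in a single genotype above, Cxcl13, Cxcl17 and Cxcl5 or Ccl4 and Cx3cl1, were not shown to differ between them. The median difference over the 34 members, labelled knockout minus labelled wild type, was -0.02, -0.14, -0.05 and -0.09 on the 4 days, while over all genes it was at most 0.03 in size.

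The largest difference on day 10 was in Ccl11. As given above, its arrays read 7.67, 8.62 and 6.69 in the labelled wild type and 5.41, 6.67 and 5.29 in the labelled knockout. The highest of the latter lay just under the lowest of the former. The difference was -1.87 (95% interval -2.92 to -0.83, limma adjusted p = 0.217). Without replicate 2 of the labelled knockout it was -2.31 (adjusted p = 0.0429). On day 28 the difference was -1.29 (adjusted p = 0.677), again without overlap, and on days 2 and 5 it was -0.12 and -0.63.

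Cxcl9 on day 28 and Cxcl12 on days 5 and 10 also had arrays that did not overlap. With so few arrays in a group, such separation can arise by chance. How often it occurred among all ligands or all genes was not counted. For Ccl11, Cxcl9, Cxcl12 and Cxcl5 it is therefore no evidence by itself of a difference between the labelled genotypes. For Cxcl9 the difference was -1.33 (adjusted p = 0.352), and -1.53 without replicate 2 of the labelled knockout (adjusted p = 0.0569). For Cxcl12 it was -0.94 on day 5 and -0.81 on day 10 (adjusted p = 0.998 and 0.544), and by day 28 it was -0.26 with overlap. Cxcl5 differed by -1.40 on day 5, by -1.18 on day 10 and by -0.93 on day 28 (adjusted p = 0.998, 0.673 and 0.978), and its arrays did not overlap on day 10. A call of Ccl8 on day 28 appeared only without replicate 2 of that day in the labelled knockout (-1.58, adjusted p = 0.0497), against -0.29 with all arrays.

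**Figure D5:**
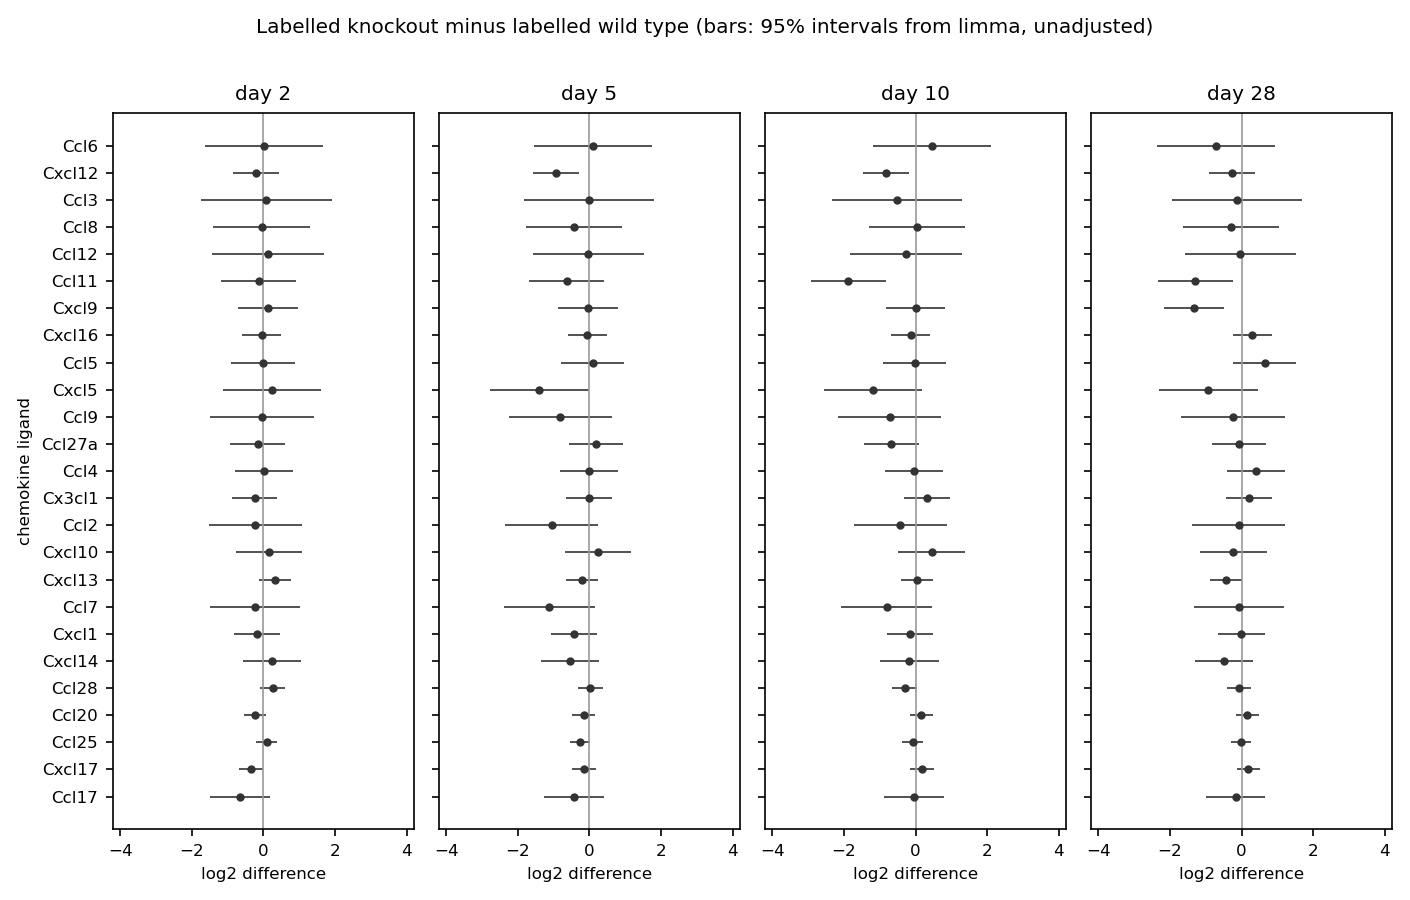
Log2 difference, labelled knockout minus labelled wild type, of the 25 tested ligands on each day, with unadjusted 95% intervals from limma. The interval of Ccl11 on day 10 runs from -2.92 to -0.83, and no ligand passed the adjusted threshold on any day.

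The receptors for these ligands were mostly low. Of 18 chemokine receptors 17 were measured and 8 tested, and by day 28 0 rose and 2 fell in each genotype. This was 25% of those tested. Of all tested genes 38.8% and 38% were called (19.2% and 18.6% lower), so the count is no result about the list. By day 10, 1 rose and 2 fell in the labelled wild type, and 0 and 2 in the labelled knockout. These were 37.5% and 25% of those tested, with backgrounds of 30.7% and 24.6%, and are no result about the list either. Cxcr4, the receptor of Cxcl12, fell from 7.26 on day 2 to 5.89, 5.73 and 5.72 on days 5, 10 and 28 of the labelled wild type (changes -1.37, -1.53 and -1.53, adjusted p = 0.00145, 5.81e-05 and 3.15e-05). For the arrays labelled knockout it fell from 7.08 to 5.78 on day 10 and 6.19 on day 28 (changes -1.29 and -0.88, adjusted p = 0.000447 and 0.00505). It thus moved against its ligand. Cxcr6, the receptor of Cxcl16, fell by 1.61 and 1.41 by day 28 (adjusted p = 0.00928 and 0.0212), with the late arrays below their medians. Ccr1, Ccr2, Ccr4, Ccr6, Ccr8 and Ccr9 did not reach the array median on any array, and Cx3cr1 was not called.

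Atypical receptors bind chemokines without signalling through G proteins and clear them. Ackr4, a scavenger of Ccl25 and of the Ccr7 ligands, rose by 1.74 and 2.02 by day 28 (adjusted p = 4.8e-07 and 1.65e-07), from day 2 levels below the array median. Ackr3, which scavenges Cxcl12, and Ackr2, which scavenges inflammatory CC ligands, were above the median on all 24 arrays and were not called on day 28 (-0.15 and -0.04 for Ackr3, 0.02 and -0.06 for Ackr2).

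Pathways that induce chemokines were listed as well. Of 24 tested genes of NF-κB and its feedback, 11 rose (45.8%) and 3 fell by day 28 in the labelled wild type, and 11 and 1 in the labelled knockout, where 19.6% and 19.4% of all tested genes rose. The median changes over the 26 measured genes were 0.28 and 0.26, beside -0.05 and -0.04 over all genes. The largest in the labelled wild type were the adhesion molecules Icam1 (2.84) and Vcam1 (2.29), the sensor Tlr2 (1.75) and the interleukin 1 receptor Il1r1 (1.64). Of 20 tested interferon genes, 11 rose (55.0%) and 1 fell, and 8 rose (40%) and 0 fell. The median changes over 21 measured genes were 0.73 and 0.76, and the largest in the labelled wild type were the antiviral genes Ifit1 (4.03) and Gbp3 (3.69), with Isg15 (2.42) and Stat2 (2.28).

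Several proteins cut or hold chemokines. Of 13 tested genes of this kind, 4 rose and 2 fell by day 28 in the labelled wild type, and 3 and 1 in the labelled knockout. These shares, 46.2% and 30.8%, lie near the 38.8% and 38% of all tested genes, so the count is no result about the list. Mmp13, a collagenase, rose by 3.42 and 3.63 (adjusted p = 0.00113 and 0.000692). Mmp9, a gelatinase, rose by 1.13 and 0.94. The heparan sulphate carrier Sdc4 fell by 1.40 and by 1.10 (adjusted p = 9.92e-05 and 0.00104). Hspg2, or perlecan, fell by 1.44 in the labelled wild type (adjusted p = 0.0112) and was at -0.75 in the labelled knockout (adjusted p = 0.181). No gene of the receptor, NF-κB, interferon or protease lists was called between genotypes on day 28.

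Many ligands are neighbours in the genome, and neighbours did not all move together. By the order of protein-coding genes in GRCm38.p6, 12 of the 34 were placed on chromosome 11 and 10 on chromosome 5. Cxcl11 was not found in this order, so it has no place in these counts or in the runs below. A run of Ccl2, Ccl7, Ccl11, Ccl12, Ccl8 and Ccl1 on chromosome 11 held 3 called ligands on day 28 in each genotype, Ccl11, Ccl12 and Ccl8. A second run on chromosome 11, Ccl5, Ccl9, Ccl6, Ccl3 and Ccl4, held 4 called ligands in the labelled wild type and 5 in the labelled knockout. On chromosome 5, the run of Cxcl5, Cxcl3, Cxcl15, Cxcl1 and Cxcl2 held 1 and 0, and the pair of Cxcl9 and Cxcl10 held 1 in each. Of all tested genes 38.8% and 38% were called. Ccl12, Ccl8, Ccl6, Ccl3 and Cxcl9 could be tested only through their later days. On chromosome 8, Ccl22, Cx3cl1 and Ccl17 lie side by side. Ccl17 fell there in both genotypes, while Cx3cl1 rose in the labelled knockout.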

How the data were processed

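The authors deposited log2 values for each transcript cluster of Affymetrix Mouse Gene 2.0 ST arrays. The submitters' processing notes name RMA and Affymetrix Expression Console. RMA corrects background, gives all arrays 1 distribution and summarises the probes of a cluster, which removes any shift shared by most genes. Software versions, like the array library build, were not given in the sources used here. Values ran from 0.313 to 14.08 and were used as deposited. No detection call was used. Precision is limited by the number of arrays.

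Of 41345 clusters 23521 had 1 gene symbol in the platform annotation, which gave 22180 genes. Genes at or above their array's median in at least 3 of 24 arrays were tested, 14892 in all. With limma 3.58.1 (R 4.3.3), each combination of genotype and day got its own mean in a linear model over the 24 arrays (16 residual and 4 prior degrees of freedom), with two-sided tests of 17 contrasts. P-values were adjusted by the Benjamini-Hochberg method over all tested genes within a contrast, and called under 0.05. All adjusted p-values are from limma. The fit was checked on simulated data.

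The members, gene lists and tests were chosen with earlier results of these data known. The naming rule allowed every ligand and chemokine receptor, gave group values for the 12 ligands with the highest means and for every called ligand, and took up to 4 called members of each other list.

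Pairing by replicate number was checked from the correlation of array deviations from group means. Every same-numbered pair exceeded 0.1 for days 5 and 2 and days 10 and 5 of the labelled wild type (lowest 0.25 and 0.41). In the labelled knockout this held for days 5, 10 and 28 against day 2 (lowest 0.15, 0.15 and 0.10, the last just above the limit), 10 against 5 (0.37) and 28 against 10 (0.26). It did not hold for days 10 and 28 against day 2 or day 28 against 10 of the labelled wild type (lowest 0.08, 0.05 and -0.05), or between genotypes (lowest between -0.08 and 0.00). Alternatives changed the filter, the choice of row, the variance model, the array weights, the groups in the fit, the block and the arrays included. Promoters came from RefSeq on GRCm38.p6. The NF-κB and interferon letters are each 1 base shorter than those of a first search, which matched fewer promoters.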

Additional observations from a re-analysis of the deposited data

How the results depend on the processing

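No direction reversed under any alternative for the results listed here. Of the counts of called ligands 216 were labelled as kept and 39 were not. A count was kept when it stayed within 1.5 times or when neither fit called a ligand. The 216 therefore include comparisons without any call, and they are no measure of stability for the contrasts with calls. With only the compared groups in the fit, the count was 4 (in place of 1) for day 5 and 12 (in place of 7) for day 10 against day 2 in the labelled wild type, 1 (in place of 2) for day 10 against 5 and 0 (in place of 2) for day 28 against 10 in the labelled knockout. Array quality weights gave 11 for day 10 against day 2 and 6 for day 10 against 5 in the labelled wild type, and no filter on low values gave 1 for day 10 against 5 in the labelled knockout. With the replicate block the counts were 5 and 7 (labelled wild type, day 5 against 2 and 10 against 5) and 8 and 6 (labelled knockout, day 10 against 2 and 28 against 10). There the block also called more of all tested genes, as given above. Where the numbers did not pair the arrays, the replicate block gave 10, 17 and 3 for days 10 and 28 against 2 and day 28 against 10 of the labelled wild type. It added Ccl27a, Ccl3 and Cxcl5 on day 10 (adjusted p = 0.00406, 0.00735 and 0.00476) and Cx3cl1 and Cxcl10 on day 28 (0.0311 and 0.0456). Between genotypes it gave 1 on day 10 (Ccl11, -1.87, adjusted p = 0.0319) and 0 on the other days. Apart from these and the gains named with each ligand, the block changed no call of a ligand. Without the second labelled knockout preparation, chosen after seeing the data, counts were 2 for day 10 against 2, 1 for day 10 against 5, and 1 between genotypes on day 10. Leaving out 1 array at a time, the counts in the labelled wild type ran from 0 to 2 (day 5 against 2), 4 to 8 (10 against 2), 13 to 14 (28 against 2), 1 to 3 (10 against 5) and 1 to 3 (28 against 10). In the labelled knockout they ran from 0 to 1, 2 to 5, 11 to 16, 1 to 2 and 0 to 5 in the same order, and between genotypes from 0 to 0 on days 2, 5 and 10 and from 0 to 1 on day 28. The causes were not tested. Signal near the array median limits the size of changes in low ligands.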
